A study of Homo sapiens with 6 samples.

Results

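Frizzled receptors are the cell-surface receptors of the Wnt ligands, and norrin, the product of NDP, is a secreted ligand outside the Wnt family that binds one of them, FZD4. The 10 genes described here, FZD1 to FZD8, NDP and the Wnt co-receptor gene LRP6, were all among the 18377 genes measured, each read by a single probe set annotated with its symbol alone. FZD3 and NDP were chosen by their log2 levels in these same arrays, which differed between the vectors, so for both genes the difference is given as a description and not as a test. The other 8 genes were chosen as relatives or partners and not for their values.

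The cells were MDA-MB-231 (MDA-MB231 in the labels), a human breast cancer line that is triple-negative and mesenchymal. One group of cultures was transfected with pTargeT, a plasmid for expression in mammalian cells, holding GHSROS, a long noncoding RNA gene, and the other with empty pTargeT. No probe set used here is named for GHSROS, so the transfected RNA gave no check of the groups. Each group had 3 cultures, described as biological replicates, and total RNA of each was measured on an Affymetrix Human Gene array. Whether the cultures were pools or single clones, and how long after transfection they were taken, is not stated in the labels. If they were not transfected separately, p-values below may reflect technical spread alone.

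In the canonical branch of the pathway a Wnt ligand brings a frizzled receptor together with LRP5 or LRP6, the complex built around APC and the axins stops degrading beta-catenin, and beta-catenin then acts with TCF and LEF factors on target genes. Other Wnts use frizzled receptors without LRP5 or LRP6, through the planar polarity proteins, to orient cells and guide axons. Norrin enters the canonical branch through FZD4, LRP5 or LRP6 and the tetraspanin TSPAN12, and is best known from the growth of retinal blood vessels.

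The arrays carried a pattern that crossed the vectors. The mean log2 level of 39 mitosis genes was 10.87, 10.81 and 9.86 on GHSROS arrays 1, 2 and 3, against 9.83, 10.67 and 10.89 on empty-vector arrays 1, 2 and 3. The mean of 25 ATF4 and stress genes ran the other way, at 9.51, 9.55 and 10.21 with GHSROS, against 10.18, 9.76 and 9.43 with the empty vector. GHSROS array 3 and empty-vector array 1 therefore stood together, apart from the other 4 arrays. All 39 mitosis genes were lowest on that pair, beside 20.3% of all genes. Of the 25 stress genes 18 were highest there, beside 18.9% of all genes, and 1 was lowest. Log2 fold changes of genes described by that pair are given below with and without it. Genes that mark this line (9 measured, among them VIM and CD44) had a mean level of 12.04 to 12.16 on all arrays. SPARC, also among the 9, was far lower, at 5.86 to 6.64, and lay below the median of all probe sets on every array. Of 11 luminal markers measured, 4 (ESR1, PGR, CDH1 and GRHL2) lay below the median of all probe sets, 6.559 to 6.648, on every array, and 7 lay above it. Among the 7, the keratin genes KRT8, KRT18 and KRT19 were at 11.56 to 12.16, ERBB2 averaged 8.90 with GHSROS and 8.89 with the empty vector, and EPCAM and GATA3 ranged from 6.90 to 7.67 over the 6 arrays. FOXA1, a luminal transcription factor gene, had 7.15, 6.99 and 7.08 with GHSROS, against 6.68, 6.75 and 6.76 with the empty vector, without overlap. Its log2 fold change was 0.35 (SE 0.08, unadjusted p = 0.00478 and adjusted p = 1 in limma). EPCAM was also higher, by 0.29 (SE 0.16), and its groups overlapped. KRT19 went the other way, at -0.28 (SE 0.12, unadjusted p = 0.0468 in limma), and its groups overlapped. Of the 11 luminal markers 4 were higher and 7 lower with GHSROS, at a median log2 fold change of -0.01. The part of FOXA1 in the results below was not tested.

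Of the 10 genes, FZD3 was higher and NDP lower in the GHSROS cultures, and the remaining 8 differed between the vectors by at most 0.12 on the log2 scale. In limma, a moderated linear model fitted over all 18377 genes, 0 genes (0% of those tested) passed an adjusted p of 0.05, and every member had an adjusted p of 1. An unadjusted p under 0.05 was reached by 1.77% of all genes (0.974% higher and 0.794% lower), and by 0 of the 8 genes that were not chosen by their values. The 3 arrays of each vector did not overlap for FZD3, FZD7 and NDP, a condition that 5.51% of all genes met, 3.06% with GHSROS above and 2.44% with GHSROS below. FZD3 and NDP were picked for that pattern, so nothing is read from this count. RNA of whole cultures cannot tell a change in every cell apart from a change in a part of the cells.

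**Figure D1:**
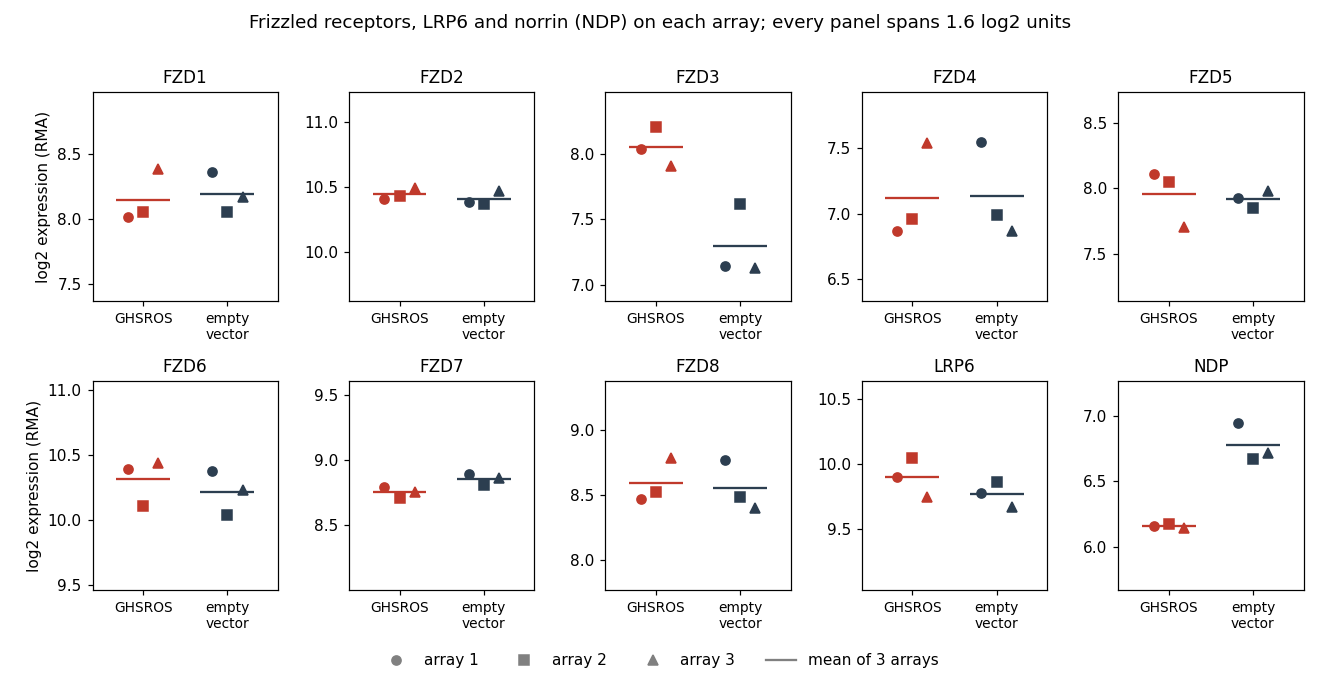
Log2 expression (vertical axes, all of equal span) of the 10 genes on each array, with GHSROS arrays at the left and empty-vector arrays at the right of each panel; symbols give the array number and lines the mean of 3 arrays. FZD3 and NDP separate by vector, FZD7 separates by a gap of 0.02, and FZD1, FZD4 and FZD8 are highest on GHSROS array 3 and empty-vector array 1.

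FZD3 and FZD6 are close relatives, known from mouse as receptors of planar polarity and, for FZD3, of axon guidance. FZD3 had log2 levels of 8.04, 8.21 and 7.91 on GHSROS arrays 1, 2 and 3, against 7.14, 7.62 and 7.13 on empty-vector arrays 1, 2 and 3. All 3 GHSROS values lay above all 3 empty-vector values, with 0.29 between the lowest of the first and the highest of the second. The means were 8.05 ± 0.15 with GHSROS and 7.30 ± 0.28 with the empty vector (SD, n = 3 each), which is 1.68-fold higher (log2 fold change 0.75, SE 0.16). The high empty-vector value belonged to array 2, and without that array the difference was 0.91. Without GHSROS array 3 and empty-vector array 1 it was 0.75. FZD6, which lies elsewhere on chromosome 8, had 10.39, 10.11 and 10.44 with GHSROS, against 10.38, 10.04 and 10.23 with the empty vector. Here the groups overlapped, array 2 was the lowest in both, and the log2 fold change was 0.10 (95% confidence interval -0.21 to 0.41, limma). Whether FZD3 and FZD6 differed from each other in this was not tested.

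NDP, the norrin gene, ran the other way. It had log2 levels of 6.16, 6.17 and 6.14 with GHSROS, against 6.95, 6.67 and 6.72 with the empty vector. The GHSROS arrays had an SD of 0.01 and the empty-vector arrays one of 0.15, and a gap of 0.50 separated the groups. The means were 6.16 with GHSROS and 6.78 with the empty vector, 1.54-fold lower (log2 fold change -0.62, SE 0.10). Leaving out each array in turn gave -0.68 to -0.54, and leaving out both arrays that stood apart gave -0.53. By its mean over the 6 arrays NDP lay at the 36.6th percentile of gene levels. Its GHSROS values lay below the median of all probe sets on each array and its empty-vector values above it. Differences between low values can be compressed, so whether norrin RNA was present in the GHSROS cultures cannot be told from these values. Of the variance of NDP over the 6 arrays 93% lay between the vectors, and of FZD3 80.8%, against a median of 6.1% over all genes, and this is the contrast on which both were chosen.

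FZD4, LRP5 and TSPAN12, parts of the norrin receptor, followed the arrays and not the vector, while LRP6 followed neither clearly. FZD4, the frizzled that binds norrin, had 6.87, 6.96 and 7.54 with GHSROS, against 7.55, 6.99 and 6.87 with the empty vector. GHSROS array 3 and empty-vector array 1 were the highest, 0.55 above the next array, and the means were 7.12 ± 0.36 with GHSROS and 7.13 ± 0.36 with the empty vector (SD, n = 3 each). The log2 fold change of -0.01 had a 95% confidence interval of -0.57 to 0.55 in limma, and was also -0.01 without both arrays that stood apart. LRP5, the co-receptor most closely tied to norrin in human retinal disease, varied still more, at 9.59, 10.00 and 10.85 with GHSROS, against 10.92, 10.24 and 9.39 with the empty vector. The same pair of arrays was highest, and the log2 fold change of LRP5 was -0.04 (SE 0.45), and -0.02 without that pair. TSPAN12, the tetraspanin that strengthens norrin signalling at FZD4, was lowest on that pair, at 7.67, 7.76 and 7.01 with GHSROS, against 7.17, 7.63 and 8.11 with the empty vector (log2 fold change -0.16, SE 0.28, and -0.15 without the pair). LRP6, which can stand in for LRP5, had 9.90, 10.05 and 9.75 with GHSROS, against 9.78, 9.86 and 9.67 with the empty vector. Its highest values were those of GHSROS arrays 2 and 1, the groups overlapped, and 26.4% of its variance lay between the vectors, against the median of 6.1% over all genes. LRP6 ranged over 0.38 across the arrays, and its log2 fold change of 0.12 had an interval of -0.13 to 0.38 (95%, limma) and was 0.21 without the pair that stood apart.

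Markers of endothelium, the tissue in which norrin signalling is best described, were read on the same arrays. Of the 8 measured, 2 were highest on GHSROS array 3 and empty-vector array 1, an order that 18.9% of all genes had, so the count is near the background. These were KDR and TIE1, named after their values were seen. KDR, a VEGF receptor gene, had 7.77, 7.68 and 9.10 with GHSROS, against 8.81, 7.30 and 7.20 with the empty vector, a log2 fold change of 0.41 (SE 0.53). Without the pair it was 0.47 (SE 0.11), and the remaining GHSROS values lay above the remaining empty-vector values. TIE1, a receptor kinase gene, had 7.44, 8.32 and 8.91 with GHSROS, against 8.73, 7.93 and 7.50 with the empty vector, a log2 fold change of 0.17 (SE 0.43), and 0.16 (SE 0.28) without the pair. The mean of the list was 6.88 to 7.40 with GHSROS and 6.78 to 7.25 with the empty vector. The adhesion genes PECAM1 (5.57 to 6.50 over the 6 arrays) and CDH5 (6.65 to 7.32) did not have that order. Of the 8 endothelial markers 6 were higher and 2 lower with GHSROS, at a median log2 fold change of 0.11. CLDN5, also named after its values were seen, was higher without overlap, by 0.16 (SE 0.09). The part of these genes, of the mitosis and stress genes or of culture state in the FZD4 values was not tested.

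**Figure D2:**
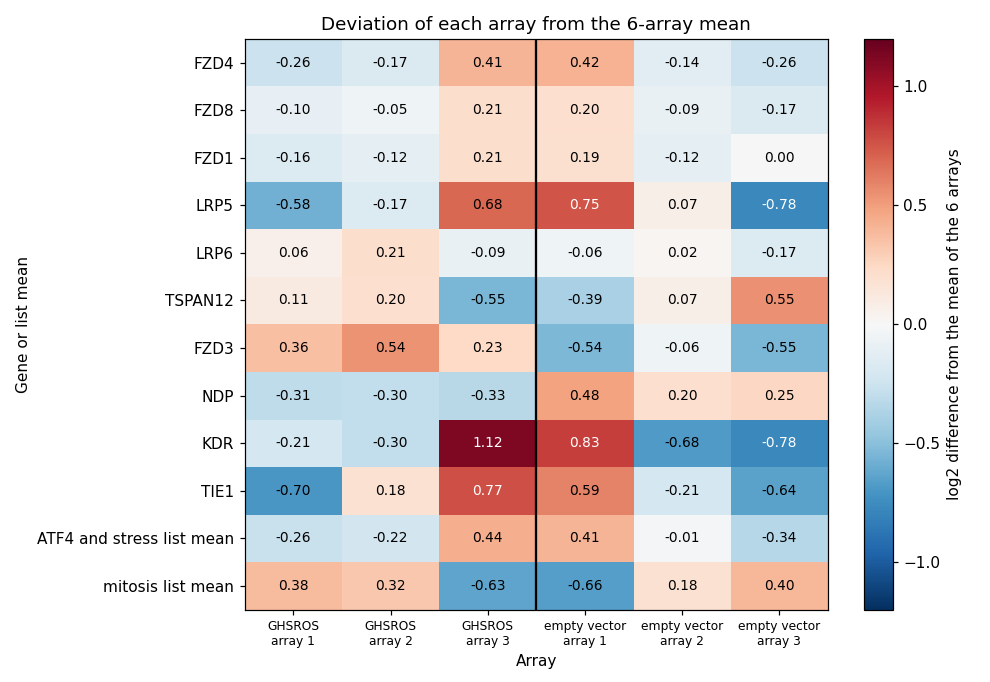
Log2 difference of each array from the 6-array mean, with genes and list means as rows and arrays as columns, GHSROS at the left of the black line. FZD4, FZD8, FZD1, LRP5, KDR, TIE1 and the stress list are red on GHSROS array 3 and empty-vector array 1, TSPAN12 and the mitosis list are blue there, and FZD3 and NDP change sign at the line between the vectors.

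FZD1 and FZD8 shared the order of FZD4 on a smaller scale. FZD1, a receptor active in canonical signalling, had 8.01, 8.05 and 8.38 with GHSROS, against 8.36, 8.05 and 8.17 with the empty vector. FZD8, the close relative of FZD5, had 8.47, 8.52 and 8.78 with GHSROS, against 8.77, 8.48 and 8.40 with the empty vector. GHSROS array 3 and empty-vector array 1 were the 2 highest for both genes, by 0.19 for FZD1 and 0.26 for FZD8. The groups overlapped, at log2 fold changes of -0.05 (95% confidence interval -0.37 to 0.27) for FZD1 and 0.04 (-0.29 to 0.36) for FZD8 in limma, and without that pair of arrays they were -0.08 and 0.05. That order was seen in 3 of the 10 genes, where 18.9% of all genes had it, and the opposite order in 0 of 10, where 20.3% of all genes had it.

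The start regions of 4 of these genes were found in RefSeq promoter sequences of GRCh38.p14, and the 250 bases before each start are shown for the 3 genes with the shared array order and for FZD5, which did not have it. Capitals mark matches, on either strand and with overlaps allowed, to the GC box GGGCGG, the CCAAT box CCAAT, the TATA box TATAAA, the TCF/LEF core CTTTGA and the C/EBP-ATF response element TGATGNAA. FZD1 is at chr7:91264183-91264432 on the plus strand, and the minus strand holds FZD4 at chr11:86955396-86955645, FZD5 at chr2:207769907-207770156 and FZD8 at chr10:35642297-35642546.
FZD4: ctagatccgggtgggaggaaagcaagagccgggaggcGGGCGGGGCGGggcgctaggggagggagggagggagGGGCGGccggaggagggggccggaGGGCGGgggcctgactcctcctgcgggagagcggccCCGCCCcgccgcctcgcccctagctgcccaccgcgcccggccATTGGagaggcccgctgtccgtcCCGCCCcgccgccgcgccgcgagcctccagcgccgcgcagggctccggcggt
FZD8: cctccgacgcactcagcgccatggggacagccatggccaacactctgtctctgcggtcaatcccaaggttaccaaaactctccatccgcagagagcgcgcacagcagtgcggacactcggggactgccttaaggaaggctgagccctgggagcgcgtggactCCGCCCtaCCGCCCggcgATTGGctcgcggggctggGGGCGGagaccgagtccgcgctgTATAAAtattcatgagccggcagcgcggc
FZD1: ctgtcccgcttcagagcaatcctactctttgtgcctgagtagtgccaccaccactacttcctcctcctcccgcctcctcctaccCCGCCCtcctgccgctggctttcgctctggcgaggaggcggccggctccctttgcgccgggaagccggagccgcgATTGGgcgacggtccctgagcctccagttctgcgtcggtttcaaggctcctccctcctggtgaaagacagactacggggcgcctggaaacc
FZD5: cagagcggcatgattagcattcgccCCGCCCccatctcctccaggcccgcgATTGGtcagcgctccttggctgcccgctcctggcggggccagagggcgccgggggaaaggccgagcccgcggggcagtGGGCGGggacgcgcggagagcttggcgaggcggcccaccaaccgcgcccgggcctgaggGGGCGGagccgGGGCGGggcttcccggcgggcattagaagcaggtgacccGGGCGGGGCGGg

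The GC content of these windows was 80.8% for FZD4, 76.8% for FZD5, 65.2% for FZD8 and 65.2% for FZD1, against a median of 58% over 35116 promoters. GC boxes numbered 6 in FZD4, 6 in FZD5, 3 in FZD8 and 1 in FZD1, and 42.6% of all promoters held at least 1. Each of the 4 held 1 CCAAT box, which 32% of all promoters held. FZD8 alone of the 4 held a TATA box, present in 10.7% of all promoters. Neither the TCF/LEF core (11.2% of all promoters) nor the C/EBP-ATF element (3.1%) was found in these 4 windows, which says only that those letters do not occur there.

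FZD2 and FZD7 belong with FZD1 to a group of closely related receptors, and both have been studied in mesenchymal breast cancer cells. FZD2 was the steadiest of the 10 genes, at 10.41, 10.43 and 10.49 with GHSROS, against 10.38, 10.37 and 10.47 with the empty vector. Its SD over the 6 arrays was 0.05, lower than that of all but 3% of genes, and the interval of its log2 fold change, -0.16 to 0.23 (95%, limma), was narrow. FZD7 had 8.79, 8.71 and 8.75 with GHSROS, against 8.89, 8.81 and 8.86 with the empty vector. All 3 GHSROS values lay below the empty-vector values, with 0.02 between the groups, and the log2 fold change was -0.10 (SE 0.08, unadjusted p = 0.228 in limma, adjusted p = 1). The interval of FZD7 ran from -0.29 to 0.08. FZD5, a receptor needed in the mouse for vessels of the yolk sac, had 8.11, 8.05 and 7.70 with GHSROS, against 7.93, 7.85 and 7.98 with the empty vector. GHSROS array 3 was the lowest of the 6, the groups overlapped, and the log2 fold change of 0.03 lay within an interval of -0.27 to 0.33.

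The 8 genes not chosen for their values had a median log2 fold change of 0.03, beside 0.002 over all genes. Of the 8, 5 were higher and 3 lower, where 50.9% of all genes were higher. Their absolute differences had a median of 0.04, against 0.06 over all genes. The frizzled-class receptors outside the set were as flat: FZD9 differed by 0.04 (SE 0.12) and SMO, the Hedgehog signal transducer, by 0.04 (SE 0.11).

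**Figure D3:**
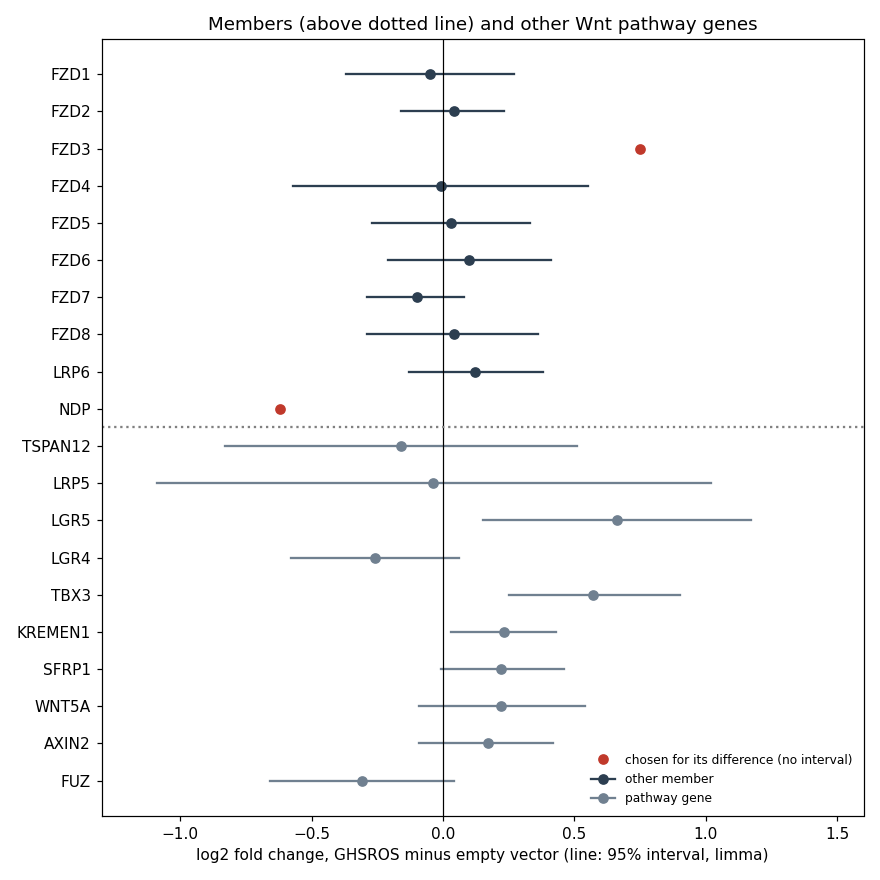
Log2 fold change, GHSROS minus empty vector (horizontal axis), for the 10 genes above the dotted line and 10 other Wnt pathway genes below it; lines are 95% intervals from limma, and FZD3 and NDP, chosen for their difference, have none. The intervals of the other 8 genes all include 0, while those of LGR5, TBX3 and KREMEN1 do not before adjustment over all genes.

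The genes around the receptors were read from 10 lists of ligands, secretion factors, co-receptors, inhibitors, R-spondin and receptor turnover genes, cytoplasmic and nuclear components, targets and planar polarity genes, which held 116 measured genes beside the 10. Of these 60 were higher and 56 lower with GHSROS, at a median log2 fold change of 0.01, and 0 passed the adjusted test. The medians of single lists given below are small, and 9 of the 10 changed sign in at least 1 of 16 alternatives. At an unadjusted p under 0.05 there were 3, all higher, which is 2.59% of 116 beside 1.77% of all genes. The 3 were LGR5, TBX3 and KREMEN1.

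LGR5, a receptor for R-spondins that slows the removal of frizzled receptors from the membrane and is itself a Wnt target, had 6.51, 6.30 and 7.11 with GHSROS, against 6.16, 5.98 and 5.79 with the empty vector. The groups did not overlap, GHSROS array 3 was the highest, and the log2 fold change was 0.66 (SE 0.22, unadjusted p = 0.0183 and adjusted p = 1 in limma). Without GHSROS array 3 it was 0.43, and without both arrays that stood apart 0.52. By its mean over the 6 arrays LGR5 lay at the 34.5th percentile of gene levels. Only its value on GHSROS array 3 lay above the median of all probe sets. LGR4, its relative, had 9.86, 9.71 and 9.95 with GHSROS, against 10.34, 10.09 and 9.89 with the empty vector, a log2 fold change of -0.26 (SE 0.14), and the groups overlapped. Of the 10 R-spondin and turnover genes 8 were higher and 2 lower, with a median of 0.12. RNF43, the ubiquitin ligase that removes frizzled receptors, differed by 0.16 (SE 0.17).

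TBX3, a transcription factor gene that answers to beta-catenin, had 7.05, 7.00 and 7.30 with GHSROS, against 6.44, 6.42 and 6.78 with the empty vector. Array 3 was the highest within both groups, the groups did not overlap, and the log2 fold change was 0.57 (SE 0.14, unadjusted p = 0.0042 and adjusted p = 1 in limma). The 18 measured Wnt targets were split 10 higher to 8 lower, with a median of 0.03. AXIN2, the most general of these targets, had 7.42, 7.64 and 7.35 with GHSROS, against 7.33, 7.20 and 7.37 with the empty vector, and differed by 0.17 (SE 0.11). MYC lay lower in all 3 GHSROS arrays (log2 fold change -0.15, SE 0.09) and CCND1 differed by -0.05 (SE 0.08). Neither passed the test.

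Among 15 secreted inhibitors and their receptors 10 were higher and 5 lower, with a median of 0.05. KREMEN1, a receptor for the inhibitor DKK1, had 7.71, 7.84 and 7.76 with GHSROS, against 7.51, 7.61 and 7.49 with the empty vector (log2 fold change 0.23, SE 0.08, unadjusted p = 0.0289 and adjusted p = 1 in limma). SFRP1, a decoy that binds Wnts, differed by 0.22 (SE 0.10), also without overlap. DKK1, which blocks LRP5 and LRP6, followed the arrays, at 12.86, 12.70 and 12.06 with GHSROS, against 12.27, 12.76 and 13.19 with the empty vector, lowest on the pair of arrays on which LRP5 was highest. Its log2 fold change was -0.20 (SE 0.28), and -0.19 without that pair.

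The Wnt ligands were split 8 higher to 11 lower, at a median of -0.01, and the largest differences were 0.22 (SE 0.13) for WNT5A, a ligand of the non-canonical branch, and 0.17 (SE 0.11) for WNT10A. Of 5 secretion and glypican genes 2 were higher, with GPC6 at 0.16 (SE 0.10) and GPC3 at -0.07 (SE 0.10). The 9 co-receptors, of which 3 were higher, had a median of -0.03, and 5 of the 9 were highest on GHSROS array 3 and empty-vector array 1, beside 18.9% of all genes. ADGRA2, an adhesion receptor gene among the 5, had a log2 fold change of 0.16 (SE 0.18), and of 0.15 without the pair. Cytoplasmic components were split 7 to 11 around -0.02, with DVL3 at -0.13 (SE 0.16), and nuclear components 7 to 5 around 0.05, with LEF1 at 0.13 (SE 0.17) and BCL9 at 0.12 (SE 0.14). Of 14 planar polarity genes, the branch that FZD3 and FZD6 serve, 8 were higher and 6 lower, and FUZ (-0.31, SE 0.15) and INTU (-0.13, SE 0.10) had the largest differences. None of these passed.

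The genes beside FZD3 and NDP on their chromosomes were examined in the order of the RefSeq gene table. FBXO16, an F-box gene, lies directly beside FZD3 on chromosome 8 with 0 listed genes between them. It had 6.08, 6.16 and 6.08 with GHSROS, against 5.54, 5.78 and 5.66 with the empty vector, a log2 fold change of 0.45 (SE 0.09). Array 2 was the highest in both groups, as it was for FZD3. FBXO16 was known from earlier results to be among the genes most separated by vector, so its values too are a description. ZNF395, beyond FBXO16 on the same side, differed by -0.02 (SE 0.10). On the other side of FZD3, EXTL3, a glycosyltransferase gene, differed by 0.12 (SE 0.09), without overlap. INTS9, farther out, differed by -0.16 (SE 0.12), with overlap.

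On the X chromosome MAOB lies beside NDP and MAOA beyond it, both genes of monoamine oxidases. MAOA had 7.29, 6.78 and 6.85 with GHSROS, against 7.52, 7.25 and 7.84 with the empty vector, a log2 fold change of -0.56 (SE 0.19, unadjusted p = 0.0218 and adjusted p = 1 in limma). Its groups overlapped, because GHSROS array 1 lay above empty-vector array 2. MAOB, between MAOA and NDP, differed by 0.05 (SE 0.12) at levels of 4.35 to 4.75, and EFHC2 and FUNDC1 on the other side differed by 0.03 (SE 0.08) and 0.04 (SE 0.13).

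Over the 40 neighbours of all 10 genes, 3 (7.5%) were highest on GHSROS array 3 and empty-vector array 1, beside 18.9% of all genes, and 11 (27.5%) were lowest there, beside 20.3%. The 3 were ZNF395 and, named after their values were seen, PRSS23, a serine protease gene, and TMEM135, the measured protein-coding genes nearest to FZD4. PRSS23 had 9.81, 9.83 and 10.60 with GHSROS, against 10.78, 10.09 and 9.82 with the empty vector (log2 fold change -0.15, and -0.13 without the pair). TMEM135 had 9.21, 9.34 and 9.92 with GHSROS, against 9.98, 9.53 and 9.10 with the empty vector (log2 fold change -0.05, and -0.04 without the pair). OR7E13P, the measured gene between FZD4 and PRSS23, and RAB38, the next measured gene beyond TMEM135, were lowest on the same pair of arrays. Of the 40, 20 were higher and 20 lower with GHSROS, and 0 passed the adjusted test. An unadjusted p under 0.05 was reached by 2 (5% of 40, beside 1.77% of all genes), MAOA and FBXO16, of which FBXO16 was known from earlier results to separate by vector. Groups without overlap were seen in 4 (10%, beside 5.51% of all genes). EXTL3 and FBXO16 were among the 4, so this count too holds a gene known beforehand to separate by vector.

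**Figure D4:**
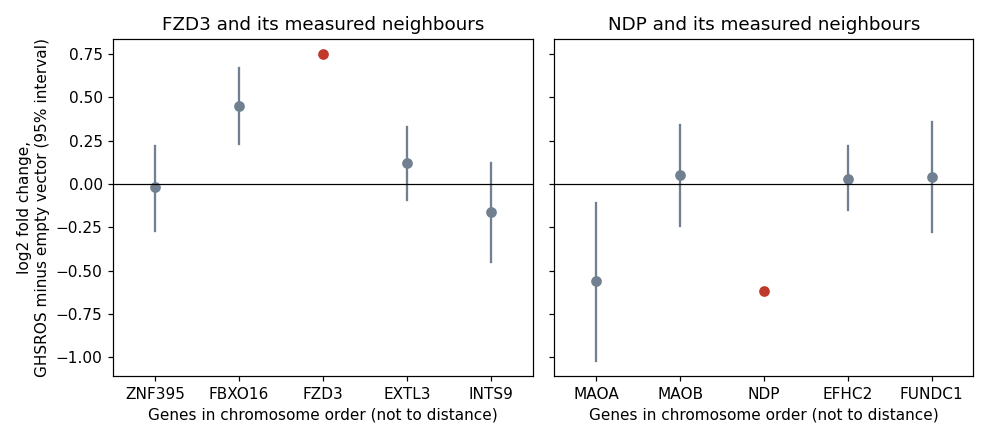
Log2 fold change, GHSROS minus empty vector (vertical axis), of FZD3 and NDP (red points, no interval) and the measured genes on either side (grey, with 95% intervals from limma) in chromosome order. FBXO16 at 0.45 stands beside FZD3 at 0.75, and MAOA at -0.56 lies beyond MAOB from NDP at -0.62.

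The genes whose values over the 6 arrays were most like those of FZD3 were SIN3A (Pearson r = 0.9922), GPR18 (0.9825) and FBXO16 (0.9706). The likeness is of shape and not of size, as SIN3A, a corepressor scaffold gene, differed between the vectors by only 0.04 (SE 0.08) and GPR18, at a level of 3.91 to 4.45, by 0.31 (SE 0.11). The genes most like NDP were ZNF585A (0.9902), TFPT (0.9855) and CDC42EP2 (0.9838), which differed by -0.44 (SE 0.09), -0.19 (SE 0.08) and -0.36 (SE 0.09). These are the highest of 18376 correlations over 6 arrays that share 2 groups, and they are given as a description.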

How the data were processed

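RNA of 6 cultures was measured on 1-colour arrays. Per the submitters' processing notes the deposited log2 values come from RMA, run by the authors with a version and steps not stated there. RMA usually equalizes the arrays, which removes shifts shared by most genes, and it can compress dim probe sets. Of 28869 probe sets 19310 carried 1 symbol in the platform annotation, 1752 several and 7807 none here. The brightest probe set per gene was kept, leaving 18377 genes, with no filter and 0 columns left out. Symbols were checked through Entrez identifiers in RefSeq (GRCh38.p14), which changed 0.

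GHSROS minus empty vector was fitted in R 4.3.3 with limma 3.58.1 (group only, two-sided, Benjamini-Hochberg over all genes). The fit was also run on simulated data with independent noise for each gene, which lack the pattern that these arrays share. The number of arrays limits the precision. Alternatives were a replicate block, 2 rescalings, 2 filters on level, probe set means, a trended robust prior, array weights, arrays left out and a mitosis covariate.

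The 10 genes, lists and tests were chosen with earlier results of these data known. Named genes were the 10, norrin's partners, up to 2 with the largest differences per pathway list, the 3 most correlated genes and the 2 measured genes on either side. RNF43, MYC, CCND1, DKK1, KDR, TIE1, PECAM1, CDH5, CLDN5, SPARC, the luminal genes and the neighbours of FZD4 were named after their values were seen. Over the 6 arrays, listed luminal markers averaged 7.83 to 7.91, immune ones 4.86 to 5.02 and fibroblast ones 5.16 to 5.34. PORCN, CSNK1E, TCF7, CENPA and ESRP1 were not analysed here.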

Additional observations from a re-analysis of the deposited data

How the results depend on the processing

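FZD3 kept its direction in 16 of 16 alternatives and NDP in 15 of 15, at 0.63 to 0.91 and -0.68 to -0.53, while FZD6, FZD7 and LRP6 kept theirs in 16 of 16. The groups of FZD3, NDP and FZD7 do not overlap, so leaving out arrays could not turn their direction. The replicate block, level filters, probe set means and trended prior gave unchanged log2 fold changes for every member they kept. For FZD3 and NDP, chosen for their difference, the counts are therefore no support. The filter at the median level dropped NDP and FZD4. With each array left out in turn, FZD1 gave -0.16 to 0.036, FZD4 -0.22 to 0.20, FZD5 -0.05 to 0.16 and FZD8 -0.058 to 0.15, so their directions are not settled. FZD4 also turned to 0.002 after median centring and 0.024 with the mitosis covariate, and FZD2 to 0 without GHSROS array 3 and empty-vector array 1. The count of genes past the adjusted threshold was 0 in all alternatives except the mitosis covariate, where it was 3 and held no member. The count at an unadjusted p under 0.05, 325 as reported, was 76 and 187 with the filters at the median and the 25th percentile, which test fewer genes, 877 with array weights and 877 with the mitosis covariate, and 191 to 480 with each array left out. It was 191 without GHSROS array 1. The cause of these shifts was not tested. With the replicate number as a block, 0 genes passed and 223 had an unadjusted p under 0.05, and the deviations of same-numbered arrays from their group means correlated at -0.714, 0.504 and -0.669 across genes, so the arrays were not treated as pairs. Of the 10 pathway list medians 9 changed sign in at least 1 alternative, and that of the secreted inhibitors, at 0.022 to 0.087, kept its sign in 16 of 16. The R-spondin median turned in 1, to -0.051 above the median level, where 3 of its 10 genes were left. The median of the nuclear list turned in 4, among them -0.027 above the median level, -0.02 without GHSROS array 3 and -0.029 without both arrays that stood apart. The secretion list turned in 6, up to 0.069, and the other 6 lists turned in 2 to 5. For 13 named genes outside the set, leaving out arrays was added after seeing the data. With each array left out in turn, LRP5 gave -0.433 to 0.332, TSPAN12 -0.389 to 0.081, KDR -0.048 to 0.931, TIE1 -0.175 to 0.56, DKK1 -0.431 to 0.045, PRSS23 -0.409 to 0.125 and TMEM135 -0.265 to 0.176, so their directions are not settled. ADGRA2, LGR5, TBX3, KREMEN1, MAOA and FBXO16 kept theirs in 7 of 7. For LGR5, TBX3, KREMEN1 and FBXO16, whose groups do not overlap, leaving out arrays could not turn the direction. The unadjusted p exceeded 0.05 in some of these for LGR5 (up to 0.0611), KREMEN1 (up to 0.101) and MAOA (up to 0.0776), and was at most 0.0224 for TBX3. Signal over background is not given in these values, so low genes such as NDP, LGR5, SFRP1 and WNT5A are limited most.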
